A study of Macaca fascicularis with 15 samples.

Results

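The genes described here encode the fibrous stroma of the eye: the fibril-forming collagens COL1A1, COL1A2 and COL3A1, the microfibrillar collagen COL6A2, and the small leucine-rich proteoglycans lumican (LUM), osteoglycin (OGN) and fibromodulin (FMOD). They were taken by name, as the rows with these symbols in the first column of every table, and all 7 were found among 12995 genes. RNA sequencing had been run on ocular tissue of wild-type cynomolgus monkeys (Macaca fascicularis), stored in an RNA-preserving solution, with each sample prepared from 1 eye. Of the 15 samples, 11 had a table: 4 of central retina, the region that holds the macula, 3 of peripheral retina, 2 of whole retina and 2 of whole eye. The other 4, of whole retina and whole eye, were not analysed here. The labels call the eye and retina samples biological replicates but are silent on how many animals gave the regional ones. The p-values below therefore cover the spread among these libraries, part or all of which can be technical. The sources used here give no age, no dissection borders and no list of the layers kept with the whole retina.

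Fibrous stroma is the tough connective tissue of the sclera, the corneal stroma and the vessel-bearing layers of the eye wall. Type I collagen is a triple helix of chains from COL1A1 and COL1A2, often laid down together with type III collagen, and it forms the load-bearing fibrils. Type VI collagen forms a finer network of beaded filaments around cells. Lumican, fibromodulin and osteoglycin bind collagen or assemble beside it, and lumican and fibromodulin limit how thick the fibrils grow. The neural retina belongs to the central nervous system and has little such connective tissue, apart from its vessels.

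The values have no stated unit and carry 2 decimals for these genes, and absolute sequencing depth is unknown. A value of 0.06 is therefore coarse, and a value of 0 says only that the gene was listed at 0. The number of genes listed at 0 per library ran between 171 in whole eye replicate 1 and 501 in central retina replicate 1. In bulk tissue, fewer cells of a type and less RNA per cell cannot be told apart.

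The whole retina libraries did not look like neural retina alone. Smooth muscle and pericyte markers (5 of 6 in the tables) summed to 1360 to 1621 in whole retina and 735 to 1403 in whole eye, against sums of 32.7 to 40.5 in the central and 27.0 to 42.7 in the peripheral libraries. The 4 melanocyte markers in the tables summed to 474 to 485 in whole retina and 556 to 829 in whole eye, against 12.5 to 29.1 in the central and 55.6 to 74.8 in the peripheral libraries. RPE65, a pigment epithelium marker, was 224 and 268 in whole retina and 261 and 286 in whole eye. It was 4.48 to 6.40 in the central and 6.18 to 7.48 in the peripheral libraries. Which pigmented cells gave these values was not tested. Lens markers (4 of 5) summed to 356 to 511 in whole retina and 2465 to 2747 in whole eye, against 1.6 to 4.39 and 1.99 to 4.48 in the central and peripheral libraries, with MIP, a lens water channel, at 0 in all central ones. KRT12, a keratin of the corneal epithelium, was 0.93 and 28.2 in whole retina against 570 and 542 in whole eye. Rod photoreceptor markers (6 of 6) were abundant in every group, with sums of 9804 to 17517 in central retina, 16128 to 24223 in peripheral retina, 13270 to 14136 in whole retina and 10670 to 12026 in whole eye. The layers present, the dissection and any difference in library preparation cannot be told apart, so every comparison of a region with whole retina below compares these libraries as labelled.

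All 7 genes were low in both retinal regions and high in both whole retina and whole eye. COL1A1, the alpha 1 chain of type I collagen, was 0.08, 0.06, 0.01 and 0.13 in central retina and 0.37, 0.10 and 0.09 in peripheral retina. It was 28.8 and 18.3 in whole retina and 72.15 and 30.7 in whole eye. The whole tissues and the regions did not overlap, while the central and peripheral libraries did. COL1A2, the partner chain, was 0.23, 0.18, 0.14 and 0.28 in central, 1.26, 0.78 and 0.38 in peripheral, 111 and 83.9 in whole retina, and 153 and 87.7 in whole eye. Each central library was below each peripheral one for COL1A2. COL3A1, the single chain of type III collagen, was 0.09, 0.04, 0.06 and 0.07 in central, 0.54, 0.07 and 0.06 in peripheral, 51.6 and 21.1 in whole retina, and 60.9 and 36.6 in whole eye. Peripheral retina replicate 1 stood above the other 6 regional libraries for COL3A1 and COL1A1.

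COL6A2, a chain of type VI collagen, was less depleted in the regions than the fibrillar collagens. Its values were 2.55, 2.60, 1.72 and 2.47 in central, 3.22, 2.47 and 1.93 in peripheral, 58.0 and 30.3 in whole retina, and 45.5 and 21.1 in whole eye. Central and peripheral libraries overlapped, and so did whole retina and whole eye. Peripheral retina replicate 1 had the highest regional value of each of the 4 collagens.

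Among the proteoglycans, lumican was the best retained in the regions. LUM was 5.06, 6.16, 4.30 and 2.46 in central, 10.4, 9.04 and 6.31 in peripheral, 27.9 and 41.4 in whole retina, and 44.7 and 45.5 in whole eye. No 2 of these 4 groups overlapped, and the order of means was central, peripheral, whole retina, whole eye. OGN was 0.08, 0.00, 0.05 and 0.06 in central, 1.05, 0.93 and 0.31 in peripheral, 48.5 and 80.3 in whole retina, and 60.8 and 72.9 in whole eye. Central libraries were all below peripheral ones, whereas the 2 whole eyes lay between the 2 whole retinas. FMOD was 1.33, 0.36, 0.55 and 1.32 in central, 4.07, 4.19 and 4.91 in peripheral, 34.3 and 23.7 in whole retina, and 22.4 and 20.0 in whole eye. FMOD was the one member with the 2 whole retinas above both whole eyes.

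**Figure D1:**
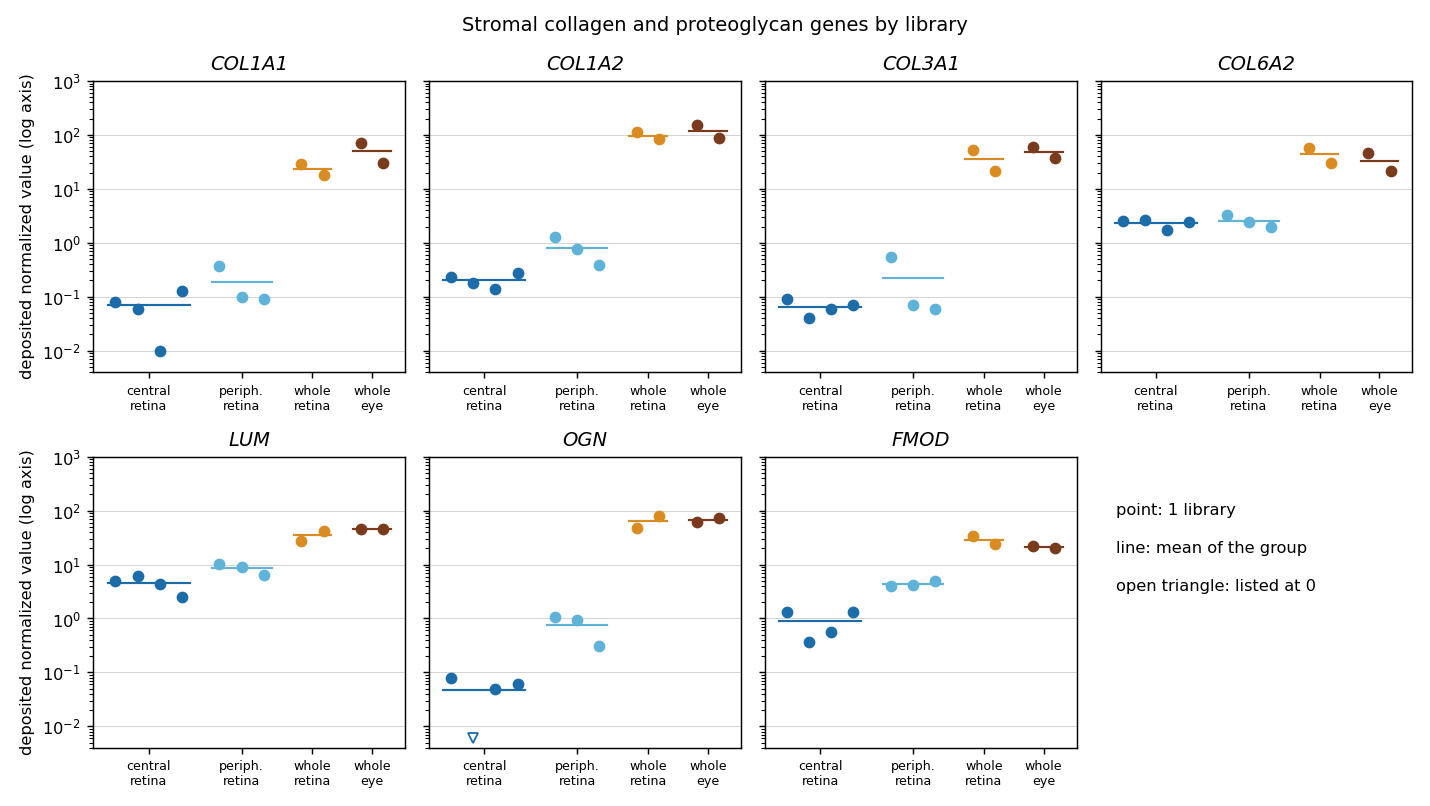
Deposited normalized value (log axis) of each of the 7 genes in each library, grouped as central retina, peripheral retina, whole retina and whole eye; points are libraries, lines are group means and the open triangle is a library listed at 0. The fibrillar collagens and OGN lie near or below 1 in the regions and above 18 in whole retina and whole eye, while LUM stays above 2 throughout.

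Against whole retina, each gene was lower in central and in peripheral retina. The test was limma on log2(value + 1) over 11933 genes, with p-values adjusted by Benjamini and Hochberg over all of them and a threshold of 0.05. Of the 7 genes, 7 were lower in central retina, where 29.7% of all tested genes were lower and 48.7% were called in either direction. In peripheral retina 7 were lower as well, beside 24.3% of all tested genes lower and 34.2% called. The 2 comparisons share the whole retina libraries. The median of the members' log2 differences was −4.49 in central and −4.34 in peripheral retina, against medians over all tested genes of −0.10 and −0.08. Because 1 is added before the logarithm, these log2 differences understate the ratios of the low genes. Quantile normalization moved the median over all genes by 0.22 in the central and 0.24 in the peripheral comparison, and the share of higher genes among those called to 59.5% and 60.9%, against 38.9% and 28.8% with the deposited scaling. Under it the members' log2 differences still ran from −5.99 to −2.52 in central and from −5.56 to −1.72 in peripheral retina.

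The collagens of the fibrils had the deepest differences together with OGN. Central COL1A2 averaged 0.208 ± 0.0608 (SD, n = 4), against 97.6 ± 19.4 in whole retina (SD, n = 2), which is 0.213% of the whole retina mean (log2 difference −6.34 ± 0.24 SE, limma adjusted p = 9.93e-09). In peripheral retina COL1A2 averaged 0.807 ± 0.441 (SD, n = 3), 0.827% of the whole retina mean (−5.78 ± 0.25 SE, limma adjusted p = 6.84e-08). COL1A1, in turn, stood at 0.297% of the whole retina mean in central and 0.793% in peripheral retina, and COL3A1 at 0.179% and 0.614%. OGN stood at 0.0738% in central retina (log2 difference −5.92 ± 0.22 SE, limma adjusted p = 9.65e-09) and at 1.19% in peripheral retina (−5.20 ± 0.23 SE, limma adjusted p = 7.82e-08).

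The other members kept a larger share of the whole retina level. COL6A2 averaged 5.29% of the whole retina mean in central and 5.75% in peripheral retina, with limma adjusted p = 2.89e-06 and 9.16e-06. LUM averaged 13.0% in central, with single libraries from 7.11% to 17.8%, and 24.8% in peripheral retina, from 18.2% to 30.0%. Its limma adjusted p was 1.22e-05 in central and 0.000457 in peripheral retina. FMOD averaged 3.07% in central and 15.1% in peripheral retina, with limma adjusted p = 2.11e-07 and 2.07e-05. Every regional library of COL6A2, LUM and FMOD kept a larger share of its gene's whole retina mean than the central libraries of COL1A1, COL1A2, COL3A1 and OGN, whose highest was 0.552%. The highest peripheral libraries of those genes, at 1.57%, 1.29%, 1.49% and 1.63%, were above the lowest central library of FMOD, at 1.24%. Whether the members' differences differ from each other was not tested.

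**Figure D2:**
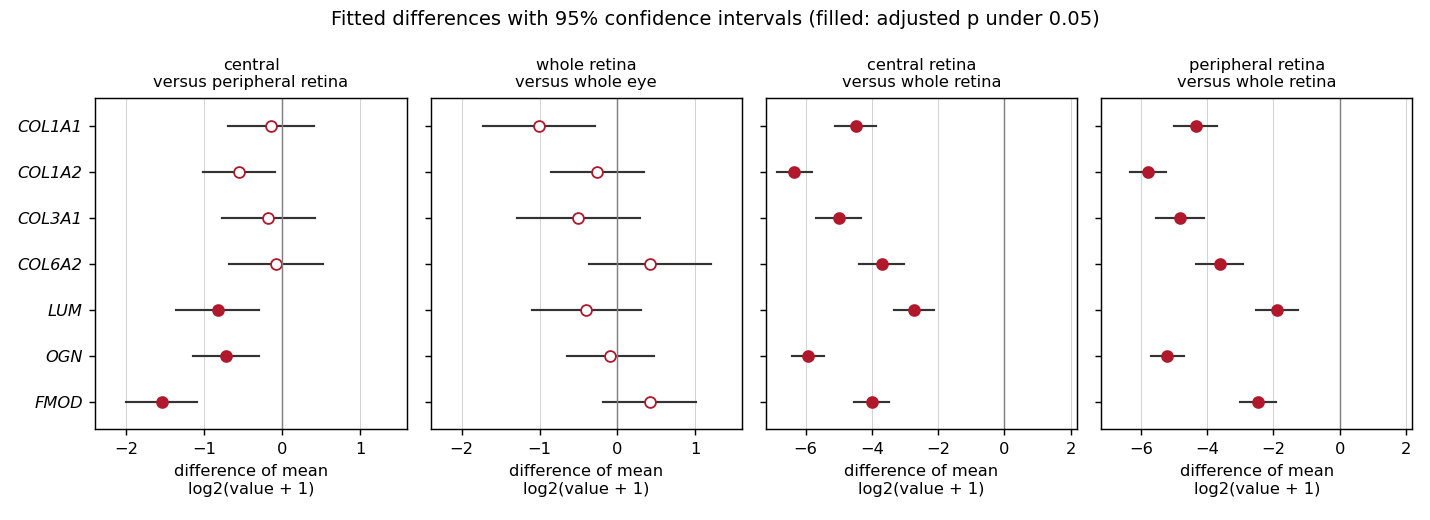
Fitted difference of mean log2(value + 1), with its 95% confidence interval, for each of the 7 genes in 4 comparisons; the 2 panels on the left and the 2 on the right have different horizontal scales, and filled points passed an adjusted p of 0.05. LUM, OGN and FMOD passed in central against peripheral retina, none of the genes in whole retina against whole eye, and all 7 in each region against whole retina.

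The mixture of these transcripts differed between the regions and the whole tissues. A ratio of a pair of genes within a library cancels a scaling factor shared by all genes of that library. Whether the deposited values were scaled by such a factor is not stated. The same pair can be compared across libraries without regard to gene length. The ratio of COL1A1 to COL1A2 was 0.0714 to 0.464 in central, 0.128 to 0.294 in peripheral, 0.218 and 0.258 in whole retina, and 0.35 and 0.472 in whole eye. The ranges of both regions and of whole retina overlap. The ratio of COL3A1 to COL1A2 overlapped in the same way, at 0.222 to 0.429 in central, 0.0897 to 0.429 in peripheral, 0.251 and 0.464 in whole retina, and 0.399 and 0.417 in whole eye.

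COL6A2 and LUM stood in another proportion to COL1A2 in the regions. Their ratios did not overlap between regions and whole tissues. Against whole retina this follows from the shares of the whole retina mean given above. The central ratios divide by COL1A2 values of 0.14 to 0.28, given to 2 decimals. The ratio of COL6A2 to COL1A2 was 8.82 to 14.4 in central and 2.56 to 5.08 in peripheral, against 0.362 and 0.522 in whole retina and 0.241 and 0.298 in whole eye. The ratio of LUM to COL1A2 was 8.79 to 34.2 in central and 8.23 to 16.6 in peripheral, against 0.25 and 0.493 in whole retina and 0.293 and 0.519 in whole eye. Summed over the 4 collagens, values were 1.93 to 2.95 in central, 2.46 to 5.39 in peripheral, 154 and 250 in whole retina, and 176 and 331 in whole eye. Summed over the 3 proteoglycans, they were 3.84 to 6.52 in central, 11.5 to 15.5 in peripheral, 111 and 145 in whole retina, and 128 and 138 in whole eye. Gene lengths were not used here, so the sums are compared only across libraries, not with each other. Each sum was lower in every regional library than in every whole tissue library.

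**Figure D3:**
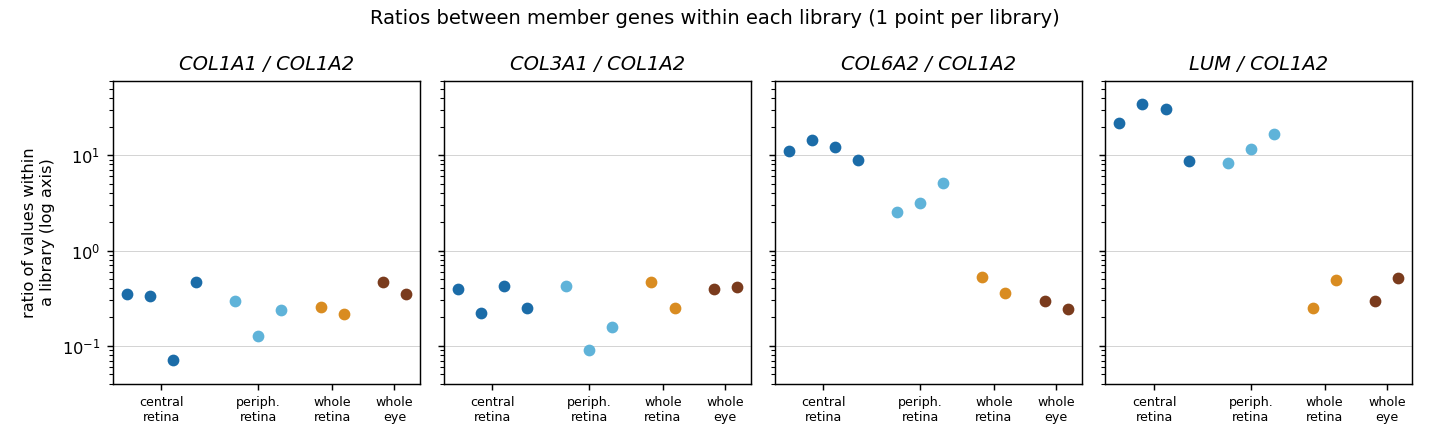
Ratio of the values of COL1A1, COL3A1, COL6A2 and LUM to that of COL1A2 within each library (log axis), 1 point per library in the order central retina, peripheral retina, whole retina and whole eye. The ratios of COL1A1 and COL3A1 stay under 0.5 in all libraries, while those of COL6A2 and LUM lie above 2 in every regional library and under 0.6 in every whole tissue library.

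Between the retinal regions, the 3 proteoglycans were lower in central than in peripheral retina, and the 4 collagens did not pass. Among the 7, limma called 3 lower in central retina and 0 higher. The shares over all tested genes were 8.76% lower, 12.5% higher and 21.3% in either direction. An unadjusted limma p under 0.05 was reached by 4 of the 7, and by 4264 of all 11933 tested genes. The groups' libraries did not overlap for 4 of the 7, the 3 proteoglycans and COL1A2, all lower in central retina, beside 15.6% of all tested genes in that direction. The median log2 difference of the 7 was −0.55, against −0.01 over all tested genes. FMOD averaged 0.89 ± 0.508 in central and 4.39 ± 0.454 in peripheral retina (SD, n = 4 and 3), a log2 difference of −1.55 ± 0.21 SE (limma adjusted p = 0.000461). LUM averaged 4.50 ± 1.56 against 8.57 ± 2.07, a log2 difference of −0.83 ± 0.24 SE (limma adjusted p = 0.0338). OGN averaged 0.0475 ± 0.0340 against 0.763 ± 0.397, a log2 difference of −0.72 ± 0.19 SE (limma adjusted p = 0.0223). Adding 1 before the logarithm compresses the difference of OGN, whose central mean was 6.22% of the peripheral one, against 52.4% for LUM.

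The call on FMOD held in each alternative tried, at limma adjusted p of 0.000531 to 0.00311. The calls on LUM and OGN were both lost without central retina replicate 4 (limma adjusted p = 0.0689 and 0.0513), without peripheral retina replicate 1 (0.126 and 0.0913) and without peripheral retina replicate 2 (0.115 and 0.0958), and that on LUM also without central retina replicate 3 (0.0696) and with no filter on low values (0.0531). For COL1A2, at 0.208 ± 0.0608 against 0.807 ± 0.441, limma gave a log2 difference of −0.55 and an adjusted p of 0.0822. It passed with smaller pseudocounts, at limma adjusted p = 0.00973 for log2(value + 0.1) and 0.0336 for log2(value + 0.5), with only the regional libraries in the fit (0.0279), with the replicate number as a block (0.0495), and without peripheral retina replicate 3 (0.0458) or whole eye replicate 1 or 2 (0.0470 and 0.0469).

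The remaining collagens gave no difference that could be told from 0 at this precision. Because 1 is added before the logarithm, the log2 differences of COL1A1 and COL3A1 understate their ratios. Their central means were 37.5% and 29.1% of the peripheral ones. Over all alternatives, smaller pseudocounts among them, the lowest limma adjusted p was 0.255 for COL1A1 and 0.316 for COL3A1. COL1A1 averaged 0.07 ± 0.0497 in central and 0.187 ± 0.159 in peripheral retina, COL3A1 0.065 ± 0.0208 against 0.223 ± 0.274, and COL6A2 2.34 ± 0.413 against 2.54 ± 0.648. The 95% interval of the log2 difference was −0.69 to 0.41 for COL1A1, −0.78 to 0.42 for COL3A1 and −0.68 to 0.52 for COL6A2, with limma adjusted p of 0.722, 0.682 and 0.868.

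Markers of several cell types differed between the regions as well, most of them lower in central retina. Among all tested genes, 8.76% were lower and 12.5% higher in central retina by limma. Of 4 tested melanocyte markers 4 were lower in central retina, with sums of 12.5 to 29.1 against 55.6 to 74.8 in peripheral retina. TYRP1 made up most of these sums, at means of 18.2 against 58.4. The names of TYR, TYRP1 and DCT start like those of other genes, and that of MLANA does not. Of 4 pigment epithelium markers 3 were lower, RLBP1, TTR and LRAT, with sums of 231 to 328 against 596 to 877. Those sums were mostly RLBP1 and TTR. RPE65, whose name starts like another, averaged 5.645 against 6.89 with overlapping libraries and did not pass (limma adjusted p = 0.185). Of 4 Mueller glia markers 3 were lower, with sums of 890 to 1153 against 1582 to 1828, and RLBP1 is on this list as well. Of 6 rod markers 3 were lower, as were 1 of 3 corneal stroma markers and 1 of 5 endothelial markers. The endothelial sums were 30.2 to 42.5 against 41.6 to 61.9, mostly KDR, the marker that passed, at means of 30.9 against 45.7. Of the others, VWF averaged lower in central retina and PECAM1, CDH5 and TEK higher, all with overlapping libraries. The corneal stroma list summed to 337 to 432 in central retina against 799 to 937 in peripheral retina, nearly all of it PTGDS, and its defining marker KERA was at 0 in all 4 central libraries. Ganglion cell markers went the other way, with 4 of 4 higher and sums of 1523 to 3031 in central against 276 to 504 in peripheral retina. Of 5 smooth muscle and pericyte markers 0 passed, with sums of 32.7 to 40.5 in central against 27.0 to 42.7 in peripheral retina. No leukocyte marker of 4 and no lens marker of 4 passed. The fibroblast markers in the tables did not pass either, and their values lay in opposite directions. PDGFRA averaged 4.69 in central against 3.4 in peripheral retina, with overlapping libraries, whereas DCN averaged 0.15 against 0.857, with every central library below every peripheral one. The part of these cell types in the differences of LUM, OGN and FMOD was not tested.

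Whole retina and whole eye were not told apart by these genes. Of the 7 genes 0 passed by limma, where 2.27% of all tested genes were called. At an unadjusted limma p under 0.05 there was 1 of the 7, beside 1265 of all 11933 tested genes. The libraries of the groups did not overlap for 3 of the 7, LUM and COL1A1 lower and FMOD higher in whole retina, beside 17.6% of all tested genes lower and 14% higher. COL1A1 averaged 23.5 ± 7.38 in whole retina and 51.4 ± 29.3 in whole eye (SD, n = 2 each), a log2 difference of −1.01 with a 95% interval of −1.72 to −0.29 (limma adjusted p = 0.237). Without whole eye replicate 2 that difference was −1.61 and passed (limma adjusted p = 0.00571). For OGN the means were 64.4 ± 22.5 and 66.8 ± 8.52, with an interval of −0.65 to 0.46 (limma adjusted p = 0.917), and for FMOD 29.0 ± 7.47 and 21.2 ± 1.73, with an interval of −0.18 to 1.01 (limma adjusted p = 0.639). With 2 libraries in each group, the spread rests on the pooled estimate over all 4 groups.

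Other proteoglycans of the family gave a similar picture, among them the chromosomal neighbours of the members. In the RefSeq annotation of the assembly T2T-MFA8v1.1, used only for gene order, PRELP and then OPTC follow FMOD, LUM lies between KERA and DCN, with EPYC beyond KERA, and OMD lies next to OGN. Of 12 other leucine-rich proteoglycan genes written down, 7 were in the tables and 5 reached the level for testing. Of these 5, 2 were lower and 0 higher in central than in peripheral retina, PRELP and TSKU, and 5 were lower in each region than in whole retina. Of all tested genes 8.76% were lower in central than in peripheral retina, and 29.7% and 24.3% in central and peripheral than in whole retina. The median log2 difference of the 5 was −0.61 in central against peripheral retina, and −3.34 in central and −3.08 in peripheral against whole retina. For whole retina against whole eye it was 0.27, and 0 passed by limma, beside 2.27% of all tested genes called. In that comparison 2 of the 5 had an unadjusted limma p under 0.05, beside 1265 of all 11933 tested genes.

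The proteoglycan genes next to FMOD, PRELP and OPTC, had the same order of group means as FMOD. PRELP, which encodes a proteoglycan that anchors basement membranes to connective tissue, was 20.5, 18.0, 18.1 and 22.1 in central and 56.1, 55.7 and 59.4 in peripheral retina, against 143 and 169 in whole retina and 148 and 112 in whole eye. Its log2 difference between the regions was −1.49 ± 0.12 SE (limma adjusted p = 5.2e-05). OPTC, opticin of the vitreous, which was not on the list, was 0.10 to 0.24 in the central and 8.43 to 72.0 in the peripheral libraries, against 501 and 546 in whole retina and 456 and 394 in whole eye. TSKU, tsukushi, a secreted signalling modulator that lies elsewhere, was 2.70 to 3.45 in the central and 7.30 to 7.97 in the peripheral libraries (limma adjusted p = 0.000133). For PRELP, OPTC and TSKU the regional libraries did not overlap, and each call held in every alternative tried.

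DCN, next to LUM, kept a smaller share of its whole retina level in the regions. This gene, for decorin, which binds collagen fibrils, was 0.29, 0.11, 0.08 and 0.12 in central and 1.77, 0.46 and 0.34 in peripheral retina, against 116 and 201 in whole retina and 266 and 215 in whole eye. It stood at 0.0945% of the whole retina mean in central retina, where LUM stood at 13.0%. The regional difference of DCN had a limma adjusted p of 0.107, and it passed in 1 of 18 alternatives, log2(value + 0.1), at 0.0207. BGN, biglycan, was 4.36 to 5.96 in the central and 2.97 to 5.76 in the peripheral libraries, against 68.1 and 60.04 in whole retina and 38.9 and 31.2 in whole eye. KERA, keratocan of the corneal stroma, was listed at 0 in all 4 central libraries, and was 0.04, 0 and 0 in peripheral retina, 0.08 and 0.01 in whole retina, and 0.43 and 1.15 in whole eye. EPYC, epiphycan, known from cartilage, was listed at 0 in all 4 central libraries and was 0.55 and 1.07 in whole eye. OMD, osteomodulin, next to OGN, was at most 0.04 in central and 0.44 in peripheral retina, against 6.76 and 12.6 in whole retina and 9.80 and 12.4 in whole eye.

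**Figure D4:**
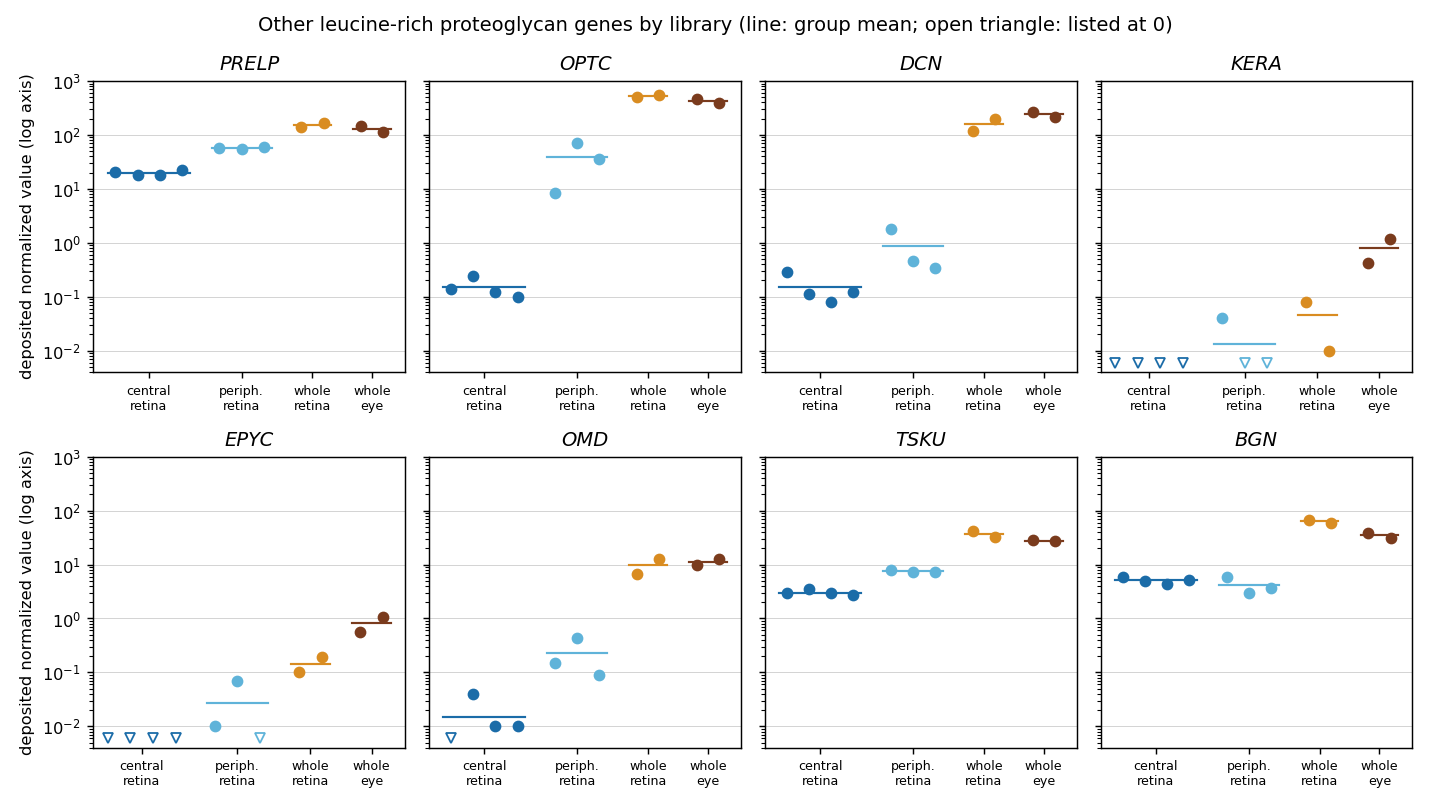
Deposited normalized value (log axis) of 8 further leucine-rich proteoglycan genes in each library, with lines for group means and open triangles for libraries listed at 0. PRELP, OPTC and TSKU are lowest in central retina, higher in peripheral retina and highest in the whole tissues, DCN and OMD are low in both regions, and BGN has overlapping central and peripheral libraries.

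Other collagens were mostly lower in the regions than in whole retina as well. Of 15 written down, 9 were tested. In central against whole retina 7 of the 9 were lower, at a median log2 difference of −0.92, and in peripheral against whole retina 7 were lower, at −0.85, where 29.7% and 24.3% of all tested genes were lower. In each comparison some of these calls were lost in at least 1 alternative, 4 of the 7 in central (COL6A3, COL12A1, COL14A1 and COL15A1) and 4 of the 7 in peripheral retina (COL5A2, COL12A1, COL14A1 and COL15A1), with the highest p under quantile normalization. COL5A2, the chromosomal neighbour of COL3A1, kept its call in 3 of 18. COL15A1, a basement membrane zone collagen, was 0.07 to 0.15 in both central and peripheral retina, against 0.84 and 1.48 in whole retina and 1.02 and 0.79 in whole eye. COL4A1 and COL4A2, the main chains of basement membranes, averaged 10.9% and 15.2% of their whole retina means in central and 14.8% and 16.0% in peripheral retina. COL16A1, which sits at the edge of fibrils, averaged 189% and 198% of its whole retina mean in central and peripheral retina and did not pass (limma adjusted p = 0.367 and 0.402). It passed in 1 of 18 alternatives in each comparison, with the replicate number as a block (limma adjusted p = 0.00191 and 0.00187). COL16A1 was low in replicate 3 of both regions, at 3.35 in central and 4.00 in peripheral retina, against 10.9 to 17.3 in the other 5 regional libraries. Between the regions 1 of the 9 was lower and 0 higher, near the 8.76% of all tested genes that were lower. It was COL18A1, a basement membrane collagen whose central libraries ranged over 6.28 to 7.10 against 7.52 to 12.3 in the peripheral ones (limma adjusted p = 0.027). That call was lost in 5 of 18 alternatives, with a highest limma p of 0.117 once peripheral retina replicate 2 was left out. Whole retina and whole eye gave 0 calls among the 9 by limma, where 2.27% of all tested genes were called. At an unadjusted limma p under 0.05 there were 6 of the 9, beside 1265 of all 11933 tested genes. The libraries did not overlap for COL4A1, COL4A2 and COL18A1, higher in whole retina, nor for COL5A2, COL6A3, COL12A1 and COL14A1, lower in it. Of all tested genes 14% were higher and 17.6% lower without overlap. COL6A3, a partner chain of COL6A2, was 0.04 to 0.35 in the central and 0.13 to 0.25 in the peripheral libraries, against 1.04 and 0.34 in whole retina and 1.54 and 1.45 in whole eye.

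Genes that fold, trim and crosslink collagen were lower in both regions too. Of 24 written down, 15 were tested, and 15 of them were lower in central and 14 in peripheral retina than in whole retina, at median log2 differences of −0.995 and −1.13, where 29.7% and 24.3% of all tested genes were lower. Calls lost in at least 1 alternative were 7 of the 15 in central and 6 of the 14 in peripheral retina, ADAMTS2, LOX and the LOX-like genes LOXL2, LOXL3 and LOXL4 in both. SERPINH1, the collagen chaperone HSP47, was 6.91, 5.94, 5.44 and 6.70 in central and 11.3, 13.1 and 11.2 in peripheral retina, against 99.2 and 73.4 in whole retina and 85.4 and 60.3 in whole eye. Its regional difference was −0.83 ± 0.15 SE (limma adjusted p = 0.00287) and held in all 18 alternatives. PCOLCE, an enhancer of procollagen cleavage whose name shares its start with another gene, stood at 3.38% of the whole retina mean in central and 2.36% in peripheral retina, and FKBP10, a prolyl isomerase of collagen folding, at 18.5% and 24.3%. Between the regions 2 of the 15 were lower, SERPINH1 and LOXL1, a lysyl oxidase gene with a shared name start, and 0 were higher, beside 8.76% of all tested genes lower. The call on LOXL1 (limma adjusted p = 0.043) was lost in 9 of 18 alternatives, with a highest limma p of 0.13 when peripheral retina replicate 3 was left out. Of the 15, 1 was lower in whole retina than in whole eye, where 2.27% of all tested genes were called. It was LOX, at 1.09 and 0.67 against 2.94 and 1.95 (limma adjusted p = 0.0179). That call was lost in 4 of 18 alternatives, reaching 0.31 when the fit held only these 2 groups.

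Among 17 further genes of stromal matrix and fibroblasts, 13 were tested, of which 12 were lower in each region than in whole retina, at median log2 differences of −1.78 in central and −1.61 in peripheral retina (all tested genes lower, 29.7% and 24.3%). Of these calls 1 was lost in some alternative in each comparison. PDGFRA lost its call in central retina in 1 of 18, without whole retina replicate 1 (limma adjusted p = 0.0663). MFAP2 kept its call in peripheral retina in 12 of 18, with a highest limma adjusted p of 0.104 without whole retina replicate 2. Between the regions 4 were lower in central retina (FBLN1, FBN1, SPARC and MFAP2) and 1 was higher (MMP2), at a median of −0.28, where 8.76% of all tested genes were lower and 12.5% higher. FBN1, fibrillin of the microfibrils, was 0.26 to 0.40 in the central and 1.42 to 2.09 in the peripheral libraries (log2 difference −1.01 ± 0.12 SE, limma adjusted p = 0.000239). MFAP2, another microfibril gene, was 3.07 to 7.05 against 10.6 to 11.8 (limma adjusted p = 0.00547). FBLN1 and SPARC, whose names begin like those of other genes so that values can be exchanged between tables, averaged 0.195 against 8.87 and 21.1 against 40.0. MMP2, with such a name as well, averaged 11.3 against 8.09 and lost its call in 9 of 18 alternatives, the highest limma adjusted p being 0.147 when peripheral retina replicate 1 was left out. Of the 13, 1 was lower in whole retina than in whole eye, again beside 2.27% of all tested genes called. It was MFAP5, at 0.21 and 0.10 against 2.26 and 1.71 (limma adjusted p = 0.000321), and it held in all 18 alternatives.

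The genes with the most similar pattern were ranked by Pearson's r of log2(value + 1) over the 11 libraries. The libraries fall into the 7 regional and the 4 whole tissue ones, and that gap sets r near 1 for many genes, so r is given as a description. The nearest to COL1A1 were BIRC7 (0.996), BACE2 (0.993) and H19 (0.992), and to COL1A2 PI16 (0.998), NPNT (0.996) and ACTG2 (0.996). COL3A1 was nearest to IFI16 (0.995), BIRC7 (0.994) and ACTG2 (0.993), and COL6A2 to SOX10 (0.993), IFITM3 (0.993) and EMP3 (0.992). OGN was nearest to DCN (0.996), PQLC3 (0.996) and PLN (0.996). LUM was nearest to TAB2 (0.993), GPAM (0.992) and RAP1B (0.990), genes that like LUM keep a sizeable regional level. RAP1B was 6.08 to 9.47 in the central and 8.97 to 10.9 in the peripheral libraries, against 20.6 and 21.4 in whole retina and 23.7 and 24.9 in whole eye. FMOD was nearest to GLIPR2 (0.992), PRSS23 (0.991) and PDLIM4 (0.988). PRSS23 was 1.00 to 2.34 in the central and 7.08 to 8.41 in the peripheral libraries, against 57.7 and 46.0 in whole retina and 52.9 and 39.4 in whole eye.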

How the data were processed

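Each of the 11 tables holds, per the file headers, 1 column of normalized signal per gene. How the authors scaled it is stated by neither the headers nor the labels. GSNAP, an aligner, and HTSeq, a read counter, are named in the submitters' processing notes without version. The genome build is not given in the sources used here and coordinates are therefore left out. Groups follow the tissue in the labels. Of 13083 entries per table, 27 without a number and 61 exact duplicates were dropped, leaving 12995, of which 9490 names match RefSeq symbols.

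limma 3.58.1 (R 4.3.3) was fitted on log2(value + 1) with 11 libraries in 4 groups, 1 variance per gene and a variance trend, for the 11933 genes whose mean reached 1 in some group. Tests were two-sided with Benjamini and Hochberg adjustment over all tested genes. Quoted ± values are SD unless marked SE. The fit was tested on simulated data. Alternatives were another pseudocount (0.1 or 0.5), no filter, quantile and median ratio scaling, only the 2 groups compared, the replicate number as a block and each library left out.

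The members, lists and tests were chosen with earlier results of these data known. The named genes are the members, the 3 genes most like each member by r among genes with a group mean of at least 10 and a name that is single, unshared and not a numbered locus, up to 4 per list by smallest p, and, after values were seen, list genes past the threshold, COL16A1, COL6A3, COL5A2, PTGDS, genes whose call was lost, and the members' chromosomal neighbours. Of the tested genes 2426, but 0 of the members, have a name that starts like another. Values there can be exchanged between tables. Tables and plots used numpy 2.4.6, pandas 2.3.3 and matplotlib 3.10.9.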

Additional observations from a re-analysis of the deposited data

Results flagged for a closer look

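In central retina, COL6A2 replicate 3 was 1.72, far below the other 3 libraries at 2.47 to 2.60 (a gap test over the group's range, applied to the 7 genes in the 4 central libraries; chance gives about 1 such result in 20 groups). Without that library the log2 difference of COL6A2 between central and peripheral retina was 0.02 in place of −0.08, and neither passed limma's threshold.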

How the results depend on the processing

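For the 7 genes, direction and side of the threshold held in all 126 combinations of gene and alternative for central against whole retina, and in all 126 for peripheral against whole retina. For central against peripheral retina 109 of 126 were unchanged, 8 lost a call (LUM and OGN), 7 gained one (COL1A2) and 2 turned direction. For whole retina against whole eye 119 were unchanged, 1 gained a call (COL1A1) and 6 turned direction. The cause was not tested.

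With single libraries left out, calls between central and peripheral retina ranged from 1327 to 2887 among all genes (main 2538), with 1327 without peripheral retina replicate 2 and 1647 without central retina replicate 4. Among the 7 genes they ranged from 1 to 4 (main 3), with 1 when replicate 4 of central retina, or replicate 1 or 2 of peripheral retina, was left out. Calls between whole retina and whole eye ranged from 249 to 745 among all genes (main 271), with 745 without whole retina replicate 2, of which 61.9% were higher against 7.38% with it, and from 0 to 1 among the 7 genes, with 1 without whole eye replicate 2. With only these 2 groups in the fit, 170 genes were called. The log2 difference of COL6A2 between central and peripheral retina ranged from −0.21 to 0.056, turning positive without central retina replicate 3 (0.016) and without peripheral retina replicate 1. Between whole retina and whole eye the range was −0.11 to 0.96 for COL6A2, −0.45 to 0.27 for OGN, −1.13 to 0.13 for COL3A1 and −0.66 to 0.14 for COL1A2. None of these 5 differences passed in the fit with all libraries.

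Median ratio scaling put the higher share of calls at 41% in peripheral against whole retina, where the deposited scaling gave 28.8%. The replicate number as a block gave 2070 calls in central against peripheral retina, 213 in whole retina against whole eye, 5427 in central against whole retina and 4224 in peripheral against whole retina, with 4, 0, 7 and 7 of the members. Same-numbered central and peripheral libraries correlated at −0.138, −0.0609 and 0.357 in their deviations from the group means, and 1 of the 3 pairs matched its own number best. The correlations were 0.19 and 0.19 for whole retina and whole eye and 0.0565 and 0.203 for central and whole retina, with each of these pairs matching its own number best, and −0.0881 and 0.11 for peripheral and whole retina. With 2 libraries in a group their deviations mirror each other, so 0.19 and 0.19 are the same value and a best match there shows only a sign. Only central against peripheral retina had 3 pairs, and these were not all above 0.1. In the other comparisons the pairs cannot decide whether the numbers mark a pairing. No label ties the numbers to an animal or day, so the fit without the block is the one reported. Depth is unknown, and values of a few hundredths limit the ratios of COL1A1, COL3A1 and OGN in central retina.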
